A study of Mus musculus with 3 samples.

Results

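The genes described here are 34 hypoxia-induced genes whose products act outside glycolysis, a set given as a list of gene names, with no threshold on any value. All 34 were found on the array, on 69 probe sets annotated to a single gene, out of 17097 genes in all. Where a gene had several probe sets, the brightest on average over the 3 arrays stood for it. A mean log2 intensity of at least 4 over the arrays was reached by 31 of the 34, and by 5813 genes in all. The 3 members under that minimum were Car12, Kdm4b and Bhlhe41.

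The cells were mesenchymal progenitors, the colony-forming stromal cells of bone marrow, called PaS+ in the labels and sorted from 8-week-old C56Bl/6 mice. They were kept in MesenCult medium in 1% oxygen, with 7 days of culture in all per the labels, exposed overnight to lentivirus carrying a short hairpin RNA (shRNA), and collected 4 days after transduction. There was 1 array of cells given a HIF-1α shRNA, 1 of cells given a HIF-2α shRNA and 1 of cells given a control shRNA. All 3 cultures therefore shared the 1% oxygen, the medium and the lentiviral transduction, and no array of cells kept at normal oxygen was analysed here. The labels do not say how many hairpins were used per target, how many animals were pooled, or whether a culture was repeated. With 1 array a group there is no spread between samples, no difference was tested, and each value below describes these 3 arrays alone.

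HIF-1 and HIF-2 are transcription factors built from an oxygen-regulated α subunit and the constant partner ARNT. When oxygen is low, prolyl hydroxylases stop marking the α subunits for destruction, and the dimers bind short hypoxia-response elements near their target genes. Besides glycolysis, these targets cover blood vessel growth, removal of mitochondria, control of acidity, restraint of growth signalling, histone demethylation and protein folding. The α subunits overlap in the sites they bind, and many targets are also driven by other stress pathways.

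The targeted transcripts were read against the labels, which they do not settle. Hif1a read 332.4 on the array labelled HIF-1α shRNA, 332.4 on the array labelled HIF-2α shRNA and 352.1 on the control array, so its probe set did not separate the hairpins. Epas1, which encodes HIF-2α, was under the minimum and read 9.44, 3.21 and 5.09 on the arrays in the same order. Epas1 on the array labelled HIF-2α lies under 3.47, the highest reading of 23 nonspecific probe sets on any array, which serves here as the floor under which a value is only a bound. Because Hif1a did not follow the hairpins, each array is named in what follows by its label. Of 11 mesenchymal progenitor markers on the array 10 exceeded the floor on each array, with summed intensities of 1997, 1685 and 1886 in the same order. Among them Cxcl12, a chemokine of marrow stroma, read 177.9 on the array labelled HIF-1α and 72.3 on the array labelled HIF-2α, against 249.96 on the control array, a log2 difference of −1.79 on the array labelled HIF-2α that exceeds that of any member's representing probe set in size. Nt5e differed by −0.33 there, whereas Pdgfra differed by 0.33 and Cd44 by 0.20. Of the 8 progenitor markers over the minimum 3 were below control on that array, 3 above and 2 equal, with a median of 0. Of 7 haematopoietic markers only 1 exceeded the floor, on the array labelled HIF-2α, and of 6 endothelial markers 1 did on each array. The 6 hybridisation controls above the floor on every array, which are foreign transcripts that an Affymetrix protocol adds to each sample, were dimmer on the array labelled HIF-2α, with a median log2 difference from control of −0.93, against 0.12 on the array labelled HIF-1α. The ratio of 3′ to 5′ signal of actin was 1.52, 1.52 and 1.38. Whether these differences touch the values below was not tested.

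Most of the hypoxia-induced genes lay close to their control level on both shRNA arrays. In such bulk RNA, fewer cells of a type and less RNA per cell cannot be told apart. On the array labelled HIF-1α their log2 differences ran from −0.69 for Pgf to 0.40 for Kdm4c, with 20 of the 31 members within 0.1 of 0. On the array labelled HIF-2α they ran from −0.82 for Stc1 to 0.58 for Kdm4c, with 18 of the 31 within 0.1. Kdm4c read 14.7 on the control array, under 16, the minimum on the linear scale. It passed only through the shRNA arrays, so its differences are not read as a result. The next highest were 0.37 for Narf on the array labelled HIF-1α and 0.43 for Stc2 on the array labelled HIF-2α. The same window held 51.8% of all genes over the minimum on the array labelled HIF-1α and 39.1% on the array labelled HIF-2α. Brighter genes differ less. At a mean log2 of at least 6, the median absolute log2 difference on the array labelled HIF-1α was 0.049 for 23 members and 0.056 for all genes. On the array labelled HIF-2α it was 0.042 and 0.110. No member differed from control by 2-fold on either shRNA array. The shares of all genes past 2-fold were 0.0688% lower and 1.26% higher on the array labelled HIF-1α, and 0.619% lower and 3.04% higher on the array labelled HIF-2α. Of 2511 genes with a mean log2 of at least 6, 0 were past 2-fold lower and 8 higher on the array labelled HIF-1α. On the array labelled HIF-2α 16 of them were lower and 13 higher.

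A difference of at least 1.5-fold was used as a rule of size for a call. By this rule 1 of 31 members, Pgf, was lower on the array labelled HIF-1α than on the control array, where 0.189% of all genes were called lower. No member was called higher there, against 4.85% of all genes. Another 2 members, Stc1 and Selenbp1, were called lower on the array labelled HIF-2α, against 1.98% of all genes, and none was called higher, against 9.96%. Counts of 1 and 2 rest on single genes, so their shares cannot be read closely against those backgrounds. Among the 2511 genes with a mean log2 of at least 6, 1 was called lower and 23 higher on the array labelled HIF-1α. On the array labelled HIF-2α 53 of these genes were called lower and 73 higher. Since 23 of the 31 members are in that brighter class, the absence of higher calls is not read as a result about the members. Kdm4c, with a log2 difference of 0.58 on the array labelled HIF-2α, sat just under the 1.5-fold line, and Selenbp1, at −0.76, was the nearest called member on that array. The plot of differences from control shows how few members lay away from 0.

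**Figure D1:**
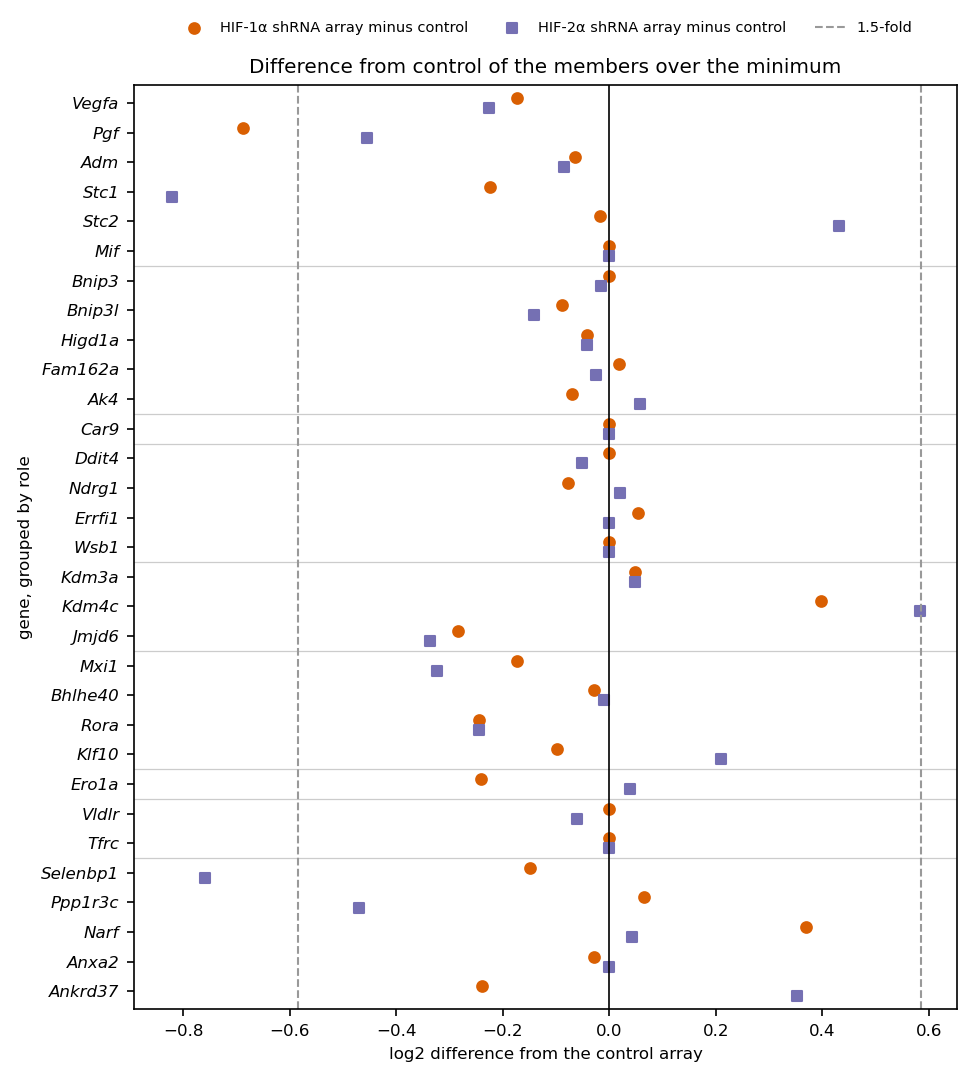
Log2 difference from the control array (x axis) of the 31 members over the minimum (y axis, grouped by role), for the array labelled HIF-1α (circles) and the array labelled HIF-2α (squares); dashed lines mark 1.5-fold. Most points sit near 0, and Pgf (circle), Stc1 and Selenbp1 (squares) lie beyond the line on the lower side.

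More members lay below control than above it. Relative to control, 19 members were lower on the array labelled HIF-1α, 6 were higher and 6 were exactly equal, with a median log2 difference of −0.03, whereas 18.8% of all genes lay below, 59.9% above and 21.3% at control, with a median of 0.05. Likewise 16 members were lower on the array labelled HIF-2α, 9 were higher and 6 were equal, with a median of −0.01, against 23.3% of all genes below, 60.4% above, 16.3% equal and a median of 0.07. Among genes with a mean log2 of at least 6, where 23 members remain, 13 members lay below control on each shRNA array, against 26.3% of all such genes on the array labelled HIF-1α and 30.9% on the array labelled HIF-2α. The plot of cumulative shares shows the members' curve to the left of the curve of all genes on both arrays.

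The size of that contrast depended on how the arrays were scaled. After cyclic loess scaling 21 of 31 members were below control on the array labelled HIF-1α, against 51.0% of all genes, and 18 of 31 on the array labelled HIF-2α, against 50.6%. After quantile normalization the counts were 25 of 31, against 57.1%, and 17 of 31, against 54.4%. As deposited, the upper quartiles of the arrays were 13.0 for HIF-1α, 13.9 for HIF-2α and 9.81 for control, so their distributions were not identical. Rescaling raised the share of all genes below control far more than the members' share, and after quantile normalization the members' count on the array labelled HIF-2α stood near the background. The members' medians after loess were −0.05 and −0.04 on the arrays labelled HIF-1α and HIF-2α. Among 1619 genes with several probe sets over the minimum, the pooled SD between probe sets of a gene was 0.19 on the log2 scale for the array labelled HIF-1α against control and 0.27 for the array labelled HIF-2α, which describes single genes and not a median over the list.

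**Figure D2:**
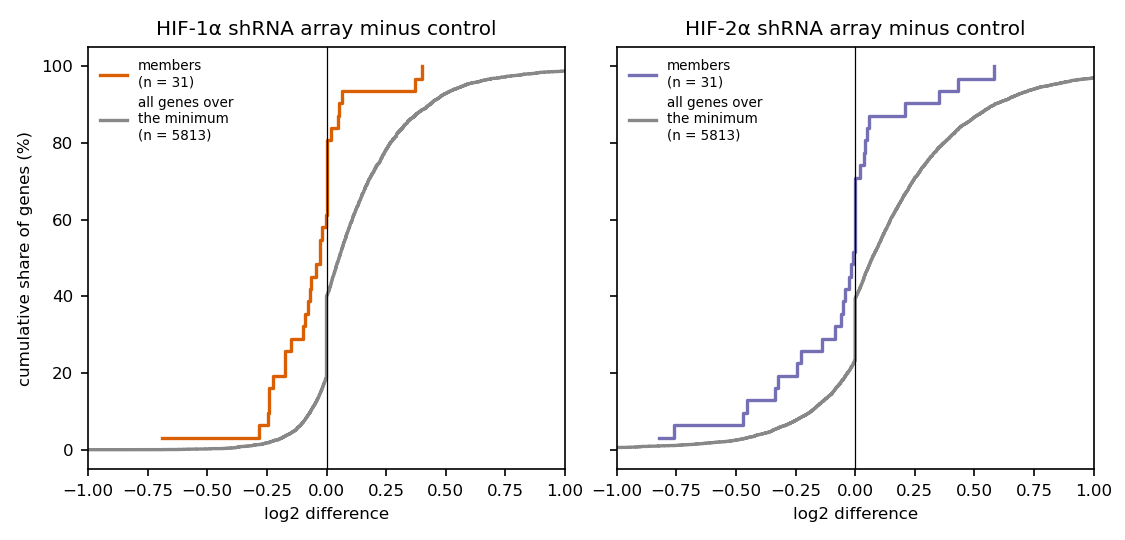
Cumulative share of genes (y axis, percent) against the log2 difference from the control array (x axis) for the array labelled HIF-1α (left) and the array labelled HIF-2α (right), as deposited without further scaling. The coloured line holds the 31 members and the grey line all 5813 genes over the minimum; the vertical step at 0 is made of genes with exactly equal values, and the grey curve runs on beyond the drawn range.

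Promoter sequences are shown for 6 members, picked after their values were seen: Pgf and Selenbp1 because they were called, Ankrd37 and Ero1a because they differed between the shRNA arrays, and Bnip3 and Car9 because they were level. The log2 difference between the shRNA arrays was 0.59 for Ankrd37 and 0.28 for Ero1a. Other members not printed, such as Ppp1r3c at −0.53 and Stc2 at 0.45, differed more than Ero1a. Each sequence is the 250 bases before an annotated transcript start, from RefSeq on build GRCm38.p6, written 5′ to 3′ on the gene's strand. Capitals mark the hypoxia-response core words ACGTG and GCGTG, searched on both strands, so CACGT and CACGC are the same words read from the other strand.
Pgf (chr12:85177314-85177563, minus strand): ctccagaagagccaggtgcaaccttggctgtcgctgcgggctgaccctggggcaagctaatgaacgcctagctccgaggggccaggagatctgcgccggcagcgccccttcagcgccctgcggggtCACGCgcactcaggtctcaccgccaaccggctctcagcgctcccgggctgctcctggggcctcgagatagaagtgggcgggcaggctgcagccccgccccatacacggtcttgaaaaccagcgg
Selenbp1 (chr3:94932833-94933082, plus strand): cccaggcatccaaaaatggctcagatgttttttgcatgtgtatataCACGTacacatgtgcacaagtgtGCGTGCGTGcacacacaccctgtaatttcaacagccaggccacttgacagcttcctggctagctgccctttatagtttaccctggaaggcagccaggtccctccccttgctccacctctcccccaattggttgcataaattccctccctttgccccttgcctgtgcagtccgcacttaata
Ankrd37 (chr8:45999851-46000100, minus strand): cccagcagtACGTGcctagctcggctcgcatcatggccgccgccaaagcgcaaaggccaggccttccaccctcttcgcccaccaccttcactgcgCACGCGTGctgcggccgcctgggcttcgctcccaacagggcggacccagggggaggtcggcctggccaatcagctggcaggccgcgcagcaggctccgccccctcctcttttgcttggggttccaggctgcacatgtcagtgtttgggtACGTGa
Ero1a (chr14:45318573-45318822, minus strand): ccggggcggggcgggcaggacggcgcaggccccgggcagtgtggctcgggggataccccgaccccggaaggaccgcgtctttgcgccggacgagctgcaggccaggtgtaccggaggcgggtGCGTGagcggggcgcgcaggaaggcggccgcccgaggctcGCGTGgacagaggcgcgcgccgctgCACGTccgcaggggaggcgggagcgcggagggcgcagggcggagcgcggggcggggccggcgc
Bnip3 (chr7:138909507-138909756, minus strand): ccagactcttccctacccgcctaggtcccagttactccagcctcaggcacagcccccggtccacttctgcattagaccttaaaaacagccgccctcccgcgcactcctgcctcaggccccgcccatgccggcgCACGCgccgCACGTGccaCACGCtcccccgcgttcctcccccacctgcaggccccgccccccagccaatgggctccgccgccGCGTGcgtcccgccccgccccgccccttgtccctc
Car9 (chr4:43506776-43507025, plus strand): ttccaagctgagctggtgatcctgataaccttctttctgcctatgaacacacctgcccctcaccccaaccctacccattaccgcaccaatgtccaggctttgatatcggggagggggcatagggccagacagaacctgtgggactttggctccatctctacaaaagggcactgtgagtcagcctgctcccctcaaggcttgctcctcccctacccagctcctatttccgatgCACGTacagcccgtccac

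RefSeq windows were at hand for 28 of the 34 members, and Bnip3l, Ndrg1, Kdm4b, Stc1, Bhlhe40 and Klf10 were not matched. At least 1 window held ACGTG in 18 of the 26 matched members over the minimum, or 69.2%, against 28.1% of 4790 matched genes over the minimum and 18.5% of all 27025 genes. GCGTG was present in 21 of 26, or 80.8%, against 53.6% and 30.9%. By each gene's window richest in G and C, the median share of these bases was 65.6% for members, against 62.0% for genes over the minimum. The 28 matched members had 42 windows, against 32851 windows for all 27025 genes, and each added window gives a further chance of a match. The part of either in the count was not tested. The members were listed as hypoxia-induced genes, so a higher share of these words may be built into the list and is not read as a result. A match is a run of letters and not a bound site.

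In the printed windows Bnip3 carried ACGTG on both strands as the palindrome at −108 to −103, counted from the first base before the start as −1, with GCGTG at −117 to −113, −99 to −95 and −35 to −31. Car9 had a single core, ACGTG at −18 to −14. Ero1a had ACGTG at −63 to −59 and GCGTG at 2 places. Ankrd37 had ACGTG at −241 to −237 and −6 to −2, and overlapping GCGTG words at −155 to −151 and −152 to −148. Selenbp1 had ACGTG at −204 to −200 beside overlapping GCGTG words. Pgf had GCGTG alone, at −124 to −120, and its second annotated window held neither word.

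Members with and without ACGTG overlapped in their differences from control. The 18 members with ACGTG had a median log2 difference of −0.01 on the array labelled HIF-1α, with 9 below control, and the 8 without it one of −0.01, with 5 below. Their medians were −0.01 and −0.02 on the array labelled HIF-2α, with 9 of 18 and 4 of 8 below. Bnip3 and Car9, which were level, and Selenbp1, which was called, each carry the word, as the map of core words shows. Of the other called members, Pgf held no ACGTG in either window and Stc1 had no window.

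**Figure D3:**
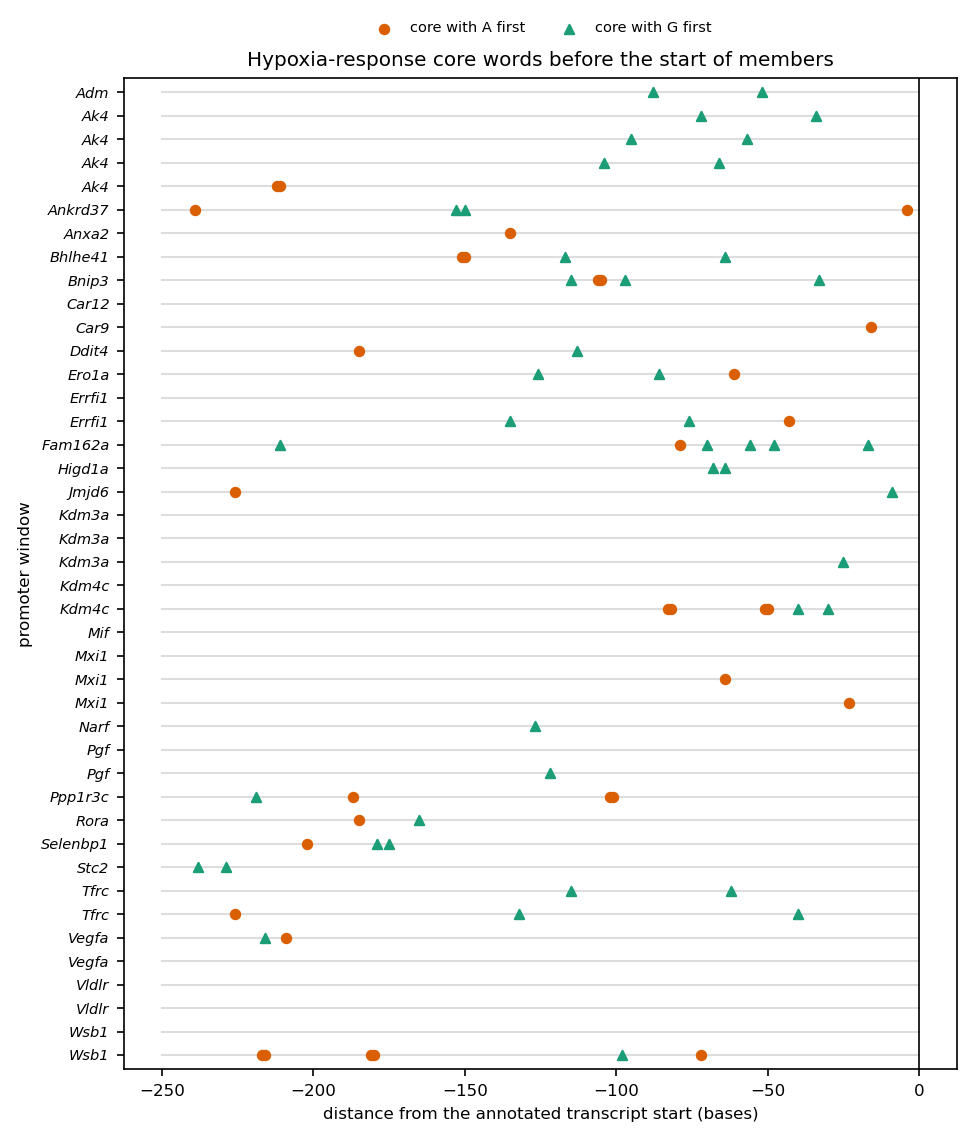
Position of the words ACGTG (circles) and GCGTG (triangles), on either strand, in the 250 bases before each annotated start of the members, with distance from the start in bases on the x axis and 1 row per window. Genes with several annotated starts have several rows, and windows that overlap show the same word more than once.

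Secreted factors included 2 of the 3 called members. Pgf encodes placental growth factor, a ligand of the VEGF receptor FLT1. It read 20.9 on the array labelled HIF-1α and 24.5 on the array labelled HIF-2α, against 33.6 on the control array, and was 1.61-fold lower on the array labelled HIF-1α and 1.37-fold lower on the array labelled HIF-2α. After cyclic loess or quantile scaling the difference on the array labelled HIF-2α was past 1.5-fold too, at −0.63 and −0.65 on the log2 scale. Stc1 encodes stanniocalcin 1, a glycoprotein hormone that acts on calcium and phosphate handling. It read 30.6 on the array labelled HIF-1α and 20.2 on the array labelled HIF-2α, against 35.8 on the control array. The value on the array labelled HIF-2α was the lowest of the 3 and 1.77-fold under control, while the value on the array labelled HIF-1α was 1.17-fold under control. Its second probe set lay under the floor on every array and so gives no check.

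The related Stc2, which encodes stanniocalcin 2 and is also a target of the integrated stress response, read 24.1 on the array labelled HIF-1α and 33.0 on the array labelled HIF-2α, against 24.4 on the control array. The value on the array labelled HIF-2α was thus the highest, by 1.35-fold, the opposite side from Stc1. Of the other Stc2 probe sets, 1445186_PM_at read 15.9 on all 3 arrays and 1419503_PM_at read 6.62, 10.3 and 4.64 on the arrays labelled HIF-1α, HIF-2α and control.

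Vegfa, the main ligand that draws blood vessels into oxygen-poor tissue, read 286.8 on the array labelled HIF-1α and 276.5 on the array labelled HIF-2α, against 323.3 on the control array. These are log2 differences of −0.17 and −0.23. Its second probe set gave −0.18 and −0.21, so both probe sets placed both shRNA arrays below control by about the same amount. Adm, which encodes the vasodilating peptide adrenomedullin, read 356.4, 351.4 and 372.6 on the arrays labelled HIF-1α, HIF-2α and control. Mif, a cytokine that acts on macrophages, read 1006, 1007 and 1007, a difference of under 1 in its intensity. All 6 secreted factors, Mif by that margin, were below control on the array labelled HIF-1α, with a median log2 difference of −0.12, and 4 of 6 were on the array labelled HIF-2α, with a median of −0.16. Over all genes 18.8% and 23.3% lay below control on these arrays in the same order, as deposited. On the array labelled HIF-1α that share was 51.0% after cyclic loess and 57.1% after quantile normalization. Mif there differed by 0.08 after cyclic loess, above control, and by −0.01 after quantile normalization.

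Genes of mitochondria and mitophagy were bright and almost level. Bnip3 encodes an outer-membrane receptor that hands mitochondria to autophagy, and read 867.3 on the array labelled HIF-1α and 857.6 on the array labelled HIF-2α, against 867.3 on the control array. Its relative Bnip3l (also called NIX), which also clears mitochondria from maturing red cells, read 414.3 and 399.6 against 440.6 in the same order. All 3 Bnip3l probe sets over the minimum were below control on both shRNA arrays, from −0.40 to −0.09 on the array labelled HIF-1α and from −0.43 to −0.14 on the array labelled HIF-2α. The dimmer Bnip3l probe sets gave the larger differences.

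Higd1a, a small inner-membrane protein that acts on respiratory chain complexes, read 610.1 on each shRNA array, against 628.3 on the control array. Its 3 probe sets were all below control, down to −0.38 on the array labelled HIF-2α for the dimmest of them. Fam162a, a hypoxia-induced mitochondrial protein, read 1092, 1060 and 1078 on the arrays labelled HIF-1α, HIF-2α and control. Ak4, an adenylate kinase of the mitochondrial matrix, read 158.4 on the array labelled HIF-1α and 172.9 on the array labelled HIF-2α, against 166.1 on the control array, by a probe set whose suffix marks it as shared between transcripts. Across the 5 genes of this role the log2 differences ran from −0.09 to 0.02 on the array labelled HIF-1α and from −0.14 to 0.06 on the array labelled HIF-2α.

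The carbonic anhydrase gene Car9, whose product sits on the cell surface, turns carbon dioxide into bicarbonate and protons and is a common marker of tissue hypoxia, read exactly 382.2 on all 3 arrays. Car12, a second membrane carbonic anhydrase, stayed under the minimum at 8.30 on the array labelled HIF-1α and 9.60 on the array labelled HIF-2α, against 11.2 on the control array. Those values exceed the floor, so Car12 was detected but dim.

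Among genes that restrain growth signalling the values were also level. Ddit4 (REDD1), an inhibitor of mTORC1, read 244.6 on the array labelled HIF-1α and 236.1 on the array labelled HIF-2α, against 244.6 on the control array. Ndrg1, a stress-induced cytoplasmic protein linked to growth arrest and differentiation, read 190.9, 204.3 and 201.5 in the same order, on a shared probe set. Errfi1 (MIG6), a feedback inhibitor of the EGF receptor, read 598.6, 576.6 and 576.6. Wsb1, a substrate adaptor of a ubiquitin ligase, read 93.1 on all 3 arrays. The 4 genes spanned −0.08 to 0.05 on the array labelled HIF-1α and −0.05 to 0.02 on the array labelled HIF-2α.

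**Figure D4:**
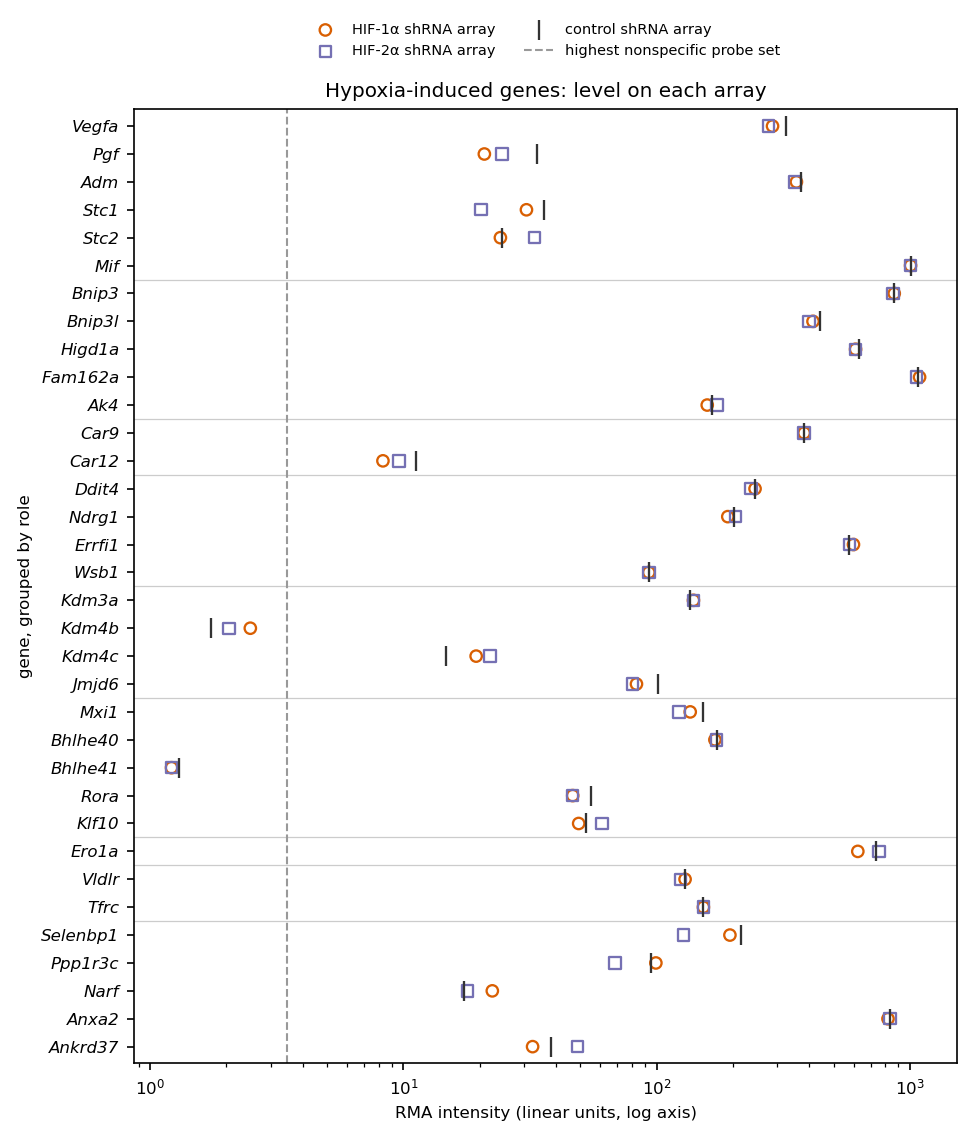
RMA intensity (x axis, log scale) of all 34 members on the array labelled HIF-1α (circles), the array labelled HIF-2α (squares) and the control array (vertical ticks), grouped by role; the dashed line is the highest nonspecific probe set, 3.47. Kdm4b and Bhlhe41 lie under that line on all 3 arrays. Each row is to be read for the spacing of its own marks, since intensities of different probe sets are not levels on a common scale.

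The chromatin and hydroxylase enzymes, which use oxygen as a substrate, lay on both sides of control. Kdm3a, a demethylase of histone H3 lysine 9, read 139.7 on each shRNA array, against 135.0 on the control array. Kdm4c, which removes methyl groups from the same residue and from lysine 36, was dim and higher on both shRNA arrays, at 19.4 on the array labelled HIF-1α and 22.0 on the array labelled HIF-2α, against 14.7 on the control array. Quantile normalization brought its log2 differences to 0.07 and 0.22. Its control value is under 16, the minimum on the linear scale, so Kdm4c passed the minimum only through the shRNA arrays. Kdm4b lay under the floor on all 3 arrays and has no usable fold. Jmjd6, a lysyl hydroxylase of splicing proteins, read 83.2 and 80.2, against 101.3 on the control array, which are log2 differences of −0.28 and −0.34. The suffix of that probe set marks it as shared between transcripts, and the other Jmjd6 probe set over the minimum gave −0.13 and −0.06.

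Among transcription factors Mxi1, a MAX partner that opposes MYC, read 135.7 on the array labelled HIF-1α and 122.3 on the array labelled HIF-2α, against 153.0 on the control array. Its second probe set was dim and lay the other way, at 9.15 and 6.72 against 4.64. Rora, a nuclear receptor of the circadian clock, read 46.6 on each shRNA array, against 55.2 on the control array, whereas its other 2 probe sets over the minimum ran from −0.12 to 0.01 on the log2 scale over both shRNA arrays. Klf10, a repressor induced early by TGF-β, read 49.2, 60.9 and 52.7 on the arrays labelled HIF-1α, HIF-2α and control. Bhlhe40 (DEC1), a repressor of clock genes, read 169.8, 171.9 and 173.1 in the same order. Its close relative Bhlhe41 (DEC2) lay under the floor on every array, at most 1.30.

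Ero1a encodes the oxidase that passes electrons from protein disulfide isomerase to oxygen in the endoplasmic reticulum. It read 622.7 on the array labelled HIF-1α and 755.7 on the array labelled HIF-2α, against 735.6 on the control array, so the array labelled HIF-1α stood apart from the other arrays. All 3 of its probe sets were below control on the array labelled HIF-1α, from −0.43 to −0.09, and all 3 were higher on the array labelled HIF-2α than on that labelled HIF-1α, by 0.09 to 0.28. Against control the array labelled HIF-2α gave −0.17 to 0.04.

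Of the members in metabolism and other roles, Selenbp1 had the largest difference from control. Its product is a selenium-binding protein that oxidises methanethiol. Selenbp1 read 194.7 on the array labelled HIF-1α and 127.5 on the array labelled HIF-2α, against 215.7 on the control array. The value on the array labelled HIF-2α was 1.69-fold under control and the value on the array labelled HIF-1α 1.11-fold under it, and this gene has a single probe set. Ppp1r3c, which targets protein phosphatase 1 to glycogen, was also lowest on the array labelled HIF-2α, at 99.3 and 68.5 against 94.9, with log2 differences of 0.07 and −0.47.

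Narf, a nuclear protein that binds prelamin A, read 22.4 on the array labelled HIF-1α and 17.9 on the array labelled HIF-2α, against 17.4 on the control array. Anxa2, a calcium-dependent membrane-binding protein, read 819.2, 835.4 and 835.4. Ankrd37, an ankyrin-repeat protein induced by HIF-1, read 32.4 on the array labelled HIF-1α and 48.8 on the array labelled HIF-2α, against 38.2 on the control array. Its shRNA values therefore lay on opposite sides of control, at −0.24 and 0.35 on the log2 scale. The lipoprotein receptor gene Vldlr read 129.5, 124.1 and 129.5 on its brightest probe set, while 2 dimmer ones, 1438258_PM_at and 1435893_PM_at, gave −0.43 and −0.41 on the array labelled HIF-2α and −0.06 each on the array labelled HIF-1α. Dimmer still, 1442169_PM_at read 24.7, 24.4 and 24.4 on the arrays labelled HIF-1α, HIF-2α and control, and 1451156_PM_s_at read 6.20 on all 3 arrays.

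Tfrc, the transferrin receptor through which cells take up iron, gave the widest disagreement between probe sets. The probe set that represents it, 1452661_PM_at, read 153.0 on all 3 arrays. A second probe set, 1422966_PM_a_at, read 11.4 on the array labelled HIF-1α and 47.0 on the array labelled HIF-2α, against 3.52 on the control array, which is barely above the floor. By it Tfrc was 3.23-fold higher on the array labelled HIF-1α and 13.4-fold higher on the array labelled HIF-2α than on the control array. The third, 1422967_PM_a_at, was near the floor, at 3.02, 5.07 and 2.85.

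The array also carries 3 control probe sets for Tfrc along the length of the message. The one at the 3′ end read 4.75 on the array labelled HIF-1α and 15.1 on the array labelled HIF-2α, against 2.30 on the control array, so it was at least 1.37-fold and at least 4.34-fold higher, with the control value raised to the floor. The middle and 5′ control probe sets stayed under the floor on every array, at 2.68 or less. A difference in Tfrc thus appears on some probe sets and not on the one chosen for brightness, and the transcripts each probe set reads were not checked here. The probe sets that differed read under 16, the minimum on the linear scale, on the control array. How often such dim probe sets differ over the whole array was not counted. With the mean of the 3 Tfrc probe sets other than controls in place of the brightest, its log2 differences were 0.59 and 1.53. The plot of Tfrc probe sets shows this split.

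**Figure D5:**
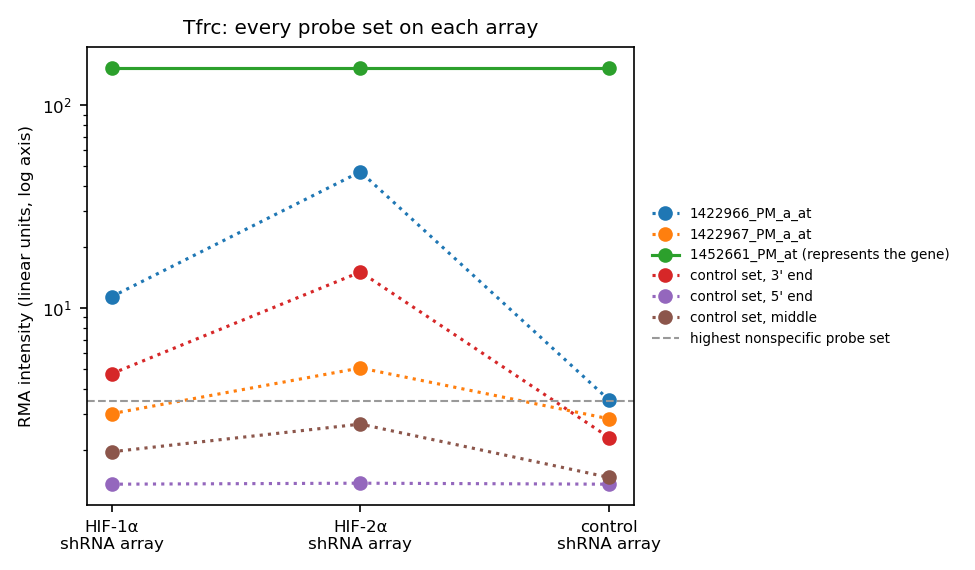
RMA intensity (y axis, log scale) of each Tfrc probe set on the arrays labelled HIF-1α, HIF-2α and control (x axis); the dotted and solid lines join the values of a probe set only to guide the eye. The representing probe set is flat at 153.0, while 1422966_PM_a_at reaches 47.0 and the 3′ control probe set 15.1 on the array labelled HIF-2α; the dashed line is the floor of 3.47.

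The shRNA arrays were also set against each other without the control array. By the 1.5-fold rule 2 members, Stc1 and Selenbp1, were lower on the array labelled HIF-2α than on that labelled HIF-1α, against 2.96% of all genes, and 1, Ankrd37, was higher, against 2.39%. At 2-fold no member was past the line, against 0.843% of all genes lower and 0.516% higher. Stc1 was 1.51-fold lower, Selenbp1 1.53-fold lower and Ankrd37 1.51-fold higher. Ppp1r3c, at 1.45-fold lower, lay just short of the line. The members' median difference was 0.00, as it was over all genes, with 14 members below 0, 11 above and 6 equal, against 28.4% of all genes below, 44.4% above and 27.2% equal. Stc1 and Ankrd37 lie close to the line, and with 1 added before log2 neither was past it.

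Exactly equal values limit what these differences can show. Among the 31 members Car9, Wsb1 and Tfrc had the same value on all 3 arrays. Hif1a, which is not a member, had exactly the same value on both shRNA arrays. The deposited table held 9336 distinct values on the array labelled HIF-1α, 10566 on the array labelled HIF-2α and 15015 on the control array for 45141 probe sets each. A small difference in such a gene may therefore not have been recorded.

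Other genes of the hypoxia pathway also lay close to control. Of 10 HIF components and regulators 6 were over the minimum, with medians of −0.04 on both shRNA arrays and none past 1.5-fold. Egln3, a prolyl hydroxylase that is itself a HIF target, read 373.6 on the array labelled HIF-1α and 386.9 on the array labelled HIF-2α, against 406.5 on the control array. Of 16 glycolysis genes over the minimum 12 were below control on the array labelled HIF-1α and 11 on the array labelled HIF-2α, with medians of −0.09 and −0.05 and none past 1.5-fold. The 4 collagen-modifying genes P4ha2, Plod1, Plod2 and Lox were all below control, with medians of −0.11 and −0.22, and Plod1 had the lowest value, −0.35 on the array labelled HIF-2α. Over all genes 18.8% lay below control on the array labelled HIF-1α and 23.3% on the array labelled HIF-2α. By the 1.5-fold rule 0.189% and 1.98% were lower, and 4.85% and 9.96% higher, in the same order. These are values as deposited, and how rescaling moves the counts of these lists was not tested.

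Several members are also targets of ATF4, the transcription factor of the integrated stress response. Of the 11 genes over the minimum in a list of ATF4 targets 5 were below control and 3 above on the array labelled HIF-1α, with a median of 0.00. There 18.8% of all genes were below control and 59.9% above. On the array labelled HIF-2α 8 of 11 were above control, with a median of 0.27, and Psat1, an enzyme of serine synthesis, and Chac1, which degrades glutathione, were past 1.5-fold, at 0.80 and 0.73. Over all genes on that array 60.4% were above control and 9.96% past 1.5-fold higher, so these counts are not set apart from the background here. The members in that list, Stc2, Ddit4 and Vldlr, gave 0.43, −0.05 and −0.06 there. Interferon-induced genes read higher on both shRNA arrays than on the control array, as in Rtp4, at 167.8 on the array labelled HIF-1α and 248.8 on the array labelled HIF-2α, against 9.27 on the control array. Of 8 such genes on the array 5 passed the minimum, and since their control values were 9.27 or less they did so only through the shRNA arrays, so no count is read from them. Their part in the members' differences was not tested.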

How the data were processed

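Expression was measured on 3 single-colour Affymetrix arrays, each from 1 µg of total RNA (labels' protocols), and titles gave the groups. The authors deposited RMA values, per the submitters' processing notes. No RMA version, setting or annotation is given in the sources used here. The deposited values are linear intensities by their range. The upper quartiles of the arrays differ, so a difference carries any shift common to many genes.

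Here log2 of each intensity was taken with no further scaling. Of the probe sets, 28898 were annotated to 1 gene, 551 to several, and 15588 were not listed and stay unnamed here. Of the first, 28689 matched RefSeq genes by Entrez identifier. Members entered by gene name with no cut on a value, but they and the other lists were chosen with earlier results of these data known. Differences were counted at 1.5-fold with no test. Alternatives were a constant of 1 or 16, other minimums, 2-fold, the mean of all probe sets, and quantile or cyclic loess scaling (limma 3.58.1, R 4.3.3). The counting code was run on simulated data with shifts past the 1.5-fold line, which checks the code and not the precision of these arrays. Python 3.11.15 with pandas 2.3.3 was used. The number of arrays limits the precision.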

Additional observations from a re-analysis of the deposited data

Results flagged for a closer look

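Other probe sets of the members, which the gene-level values do not use, were read for signal at least 2-fold above the control array. Tfrc probe set 1422966_PM_a_at was 3.23-fold above control on the array labelled HIF-1α and 13.4-fold above it on the array labelled HIF-2α, while the probe set that represents Tfrc was equal on all 3 arrays. The 3′ control probe set for Tfrc was at least 4.34-fold above control on the array labelled HIF-2α, with the control value raised to the floor of 3.47. Stc2 probe set 1419503_PM_at was 2.21-fold above control on the array labelled HIF-2α, at 10.3 against 4.64, where the brighter Stc2 probe set was 1.35-fold above. On the control array these probe sets read 3.52, 2.30 and 4.64, all under 16, the minimum on the linear scale. They stand out only through the shRNA arrays. The share of all such dim probe sets past 2-fold was not counted, so no result about the members is read from them. No replicate array exists to set these probe sets beside, and the cause of their differences was not tested.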

How the results depend on the processing

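The members' median log2 difference ran from −0.06 to −0.03 on the array labelled HIF-1α over the alternatives run, and from −0.04 to −0.01 on the array labelled HIF-2α, and no called member changed sign. Counts of called members are small and changed often. For members called lower on the array labelled HIF-1α, the count of 1 became 0 with 16 added before log2, at a mean log2 of at least 6, at 64 or more on at least 1 array, and at 2-fold. For members called lower on the array labelled HIF-2α, the count of 2 became 1 with 16 added, at either stricter minimum and with the mean of all probe sets, 0 at 2-fold, and 3 under quantile normalization and cyclic loess, where Pgf was past 1.5-fold as well. For the array labelled HIF-2α against that labelled HIF-1α, the count lower of 2 became 1 with 1 added, at either stricter minimum and with the mean of all probe sets, and 0 with 16 added and at 2-fold. The count higher of 1 became 0 with 1 or 16 added, at either stricter minimum, under quantile normalization, under cyclic loess and at 2-fold, and 2 with the mean of all probe sets. That mean also raised the counts higher than control on the arrays labelled HIF-1α and HIF-2α to 1 each, Tfrc in both cases. Over all genes, calls on the array labelled HIF-2α were higher in 83.4% as deposited, 68.7% after cyclic loess and 59.7% after quantile normalization, and on the array labelled HIF-1α in 96.2%, 90.5% and 84.5%. Adding 16 took Pgf to −0.43 on the array labelled HIF-1α and Stc1 to −0.51 on the array labelled HIF-2α. The cause of these changes was not tested beyond what each alternative removes. No paired analysis was possible because each group has 1 array.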
